A study of Mus musculus with 6 samples.

Results

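The genes described here are 31 macrophage and leukocyte genes among the 19938 genes measured in whole stomach of mouse embryos at E13.5, a stage of mid-gestation. Each was represented by its highest probe set annotated to that symbol alone, and each of the 31 had exactly 1 such probe set. A further 3 probe sets were annotated to Itgam together with Rpl35 and were not used. Each group had 3 arrays: one was wild type, and the other had the genotype Nkx3.2Cre;R26-SmoM2, called SmoM2 here. In these embryos a Cre recombinase driven by Nkx3-2, a gene of the stomach mesenchyme and not of blood cells, switches on from the Rosa26 locus a Smoothened protein that signals without hedgehog ligand. The labels name no Cre or SmoM2 allele in the wild type group, and they do not say whether an array held 1 embryo, a litter or a pool, so each p-value rests on a spread between samples that may be technical.

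Macrophages of the mouse embryo arise from yolk sac and fetal liver progenitors and settle in nearly every organ before birth. They depend on signals through the receptor Csf1r and on the transcription factor PU.1, which is encoded by Spi1. They take up dying cells and debris through scavenger and Fc receptors, digest them in lysosomes, and secrete complement C1q. In the stomach they lie in the mesenchyme and later in the muscle layer, and each array measured them together with all other cells of the organ. Fewer such cells and less RNA per cell cannot be told apart in these data.

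Values are log2 signals. As a gauge of dim probe sets, the genes of smell and pheromone receptors (olfactory and vomeronasal, called receptor genes below) had a 95th percentile of 8.05. Of all 19938 genes 14132 had a mean above it, and so did 27 of the 31 genes. The exceptions among the 31 were Itgam, Cd163, Cd14 and Aif1, whose values lie among those of dim probe sets. Markers of other leukocytes were mostly dim: 6 of 17 lymphocyte genes, 8 of 18 granulocyte and monocyte genes, 4 of 12 genes of dendritic cells and MHC class II, and 1 of 8 mast cell genes lay above 8.05, while 17 of 17 erythroid and 9 of 10 megakaryocyte and platelet genes did. Of 8 genes of stomach mesenchyme and epithelium 8 lay above it. Among them Foxf1 and Acta2 were higher and Cdh1 and Epcam lower in SmoM2 (limma adjusted p = 0.0366, 0.0436, 0.0111 and 0.0341). Over all genes 0.326% were called higher and 0.657% lower at an adjusted p under 0.05. When single arrays were left out, Cdh1 lost this call without wild type 1 or SmoM2 3 (adjusted p = 0.0673 and 0.0749). Foxf1 lost it without any 1 of the 6 (0.0598 to 0.219), and Acta2 and Epcam without any 1 except SmoM2 2 (0.0543 to 0.219 and 0.0580 to 0.197). Sex-linked signal differed between the arrays. Xist stood at 7.11 in wild type 1 and between 11.43 and 12.37 in the other 5, while the mean of 3 Y-linked genes was 10.37, 9.92 and 9.07 in wild type 1, 2 and 3 and from 8.71 to 9.27 in SmoM2.

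Many of these genes are known targets of PU.1, so the sequence before their start sites is shown for 5 of them: Pf4, Lyz2, Cd68 and Mrc1, which had the largest differences between the groups, and C1qb of the complement chains. RefSeq start sites on GRCm38.p6 gave windows from 250 bases before to 50 bases after the start, and 23 of the 31 genes matched. Adgre1, C1qa, Cd14, Csf1r, Csf2rb, Rac2, Spi1 and Tyrobp had no entry. The printed part is the 250 bases before the start, 5′ to 3′ on the strand of the gene. Capitals mark GAGGAA, a form of the motif that PU.1 binds, or its reverse complement TTCCTC. Other forms of the motif were not searched and are not marked.
Pf4: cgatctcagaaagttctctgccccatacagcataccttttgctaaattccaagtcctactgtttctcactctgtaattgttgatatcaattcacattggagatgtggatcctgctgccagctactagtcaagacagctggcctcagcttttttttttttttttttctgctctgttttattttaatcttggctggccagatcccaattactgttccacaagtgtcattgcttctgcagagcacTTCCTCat
Lyz2: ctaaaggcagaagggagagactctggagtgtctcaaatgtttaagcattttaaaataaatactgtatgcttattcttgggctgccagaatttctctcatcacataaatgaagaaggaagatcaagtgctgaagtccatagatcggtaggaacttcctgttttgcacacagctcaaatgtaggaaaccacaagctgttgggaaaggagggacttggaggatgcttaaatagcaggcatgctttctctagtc
Cd68: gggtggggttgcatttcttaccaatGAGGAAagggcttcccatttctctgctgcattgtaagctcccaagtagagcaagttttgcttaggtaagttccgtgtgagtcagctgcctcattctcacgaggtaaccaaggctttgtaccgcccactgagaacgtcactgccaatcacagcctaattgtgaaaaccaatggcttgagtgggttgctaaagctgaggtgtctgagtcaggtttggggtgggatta
Mrc1: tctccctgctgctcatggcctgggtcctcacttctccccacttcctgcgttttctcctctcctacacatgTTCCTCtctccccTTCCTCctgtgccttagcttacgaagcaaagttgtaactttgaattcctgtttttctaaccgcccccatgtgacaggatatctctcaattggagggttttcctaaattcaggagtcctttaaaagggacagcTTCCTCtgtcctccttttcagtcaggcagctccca
C1qb: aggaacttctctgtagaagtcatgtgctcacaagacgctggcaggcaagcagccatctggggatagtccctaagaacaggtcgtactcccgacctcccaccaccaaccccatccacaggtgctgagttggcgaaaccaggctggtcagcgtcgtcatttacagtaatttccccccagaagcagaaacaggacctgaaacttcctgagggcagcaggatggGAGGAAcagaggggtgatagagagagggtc

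These stretches lie at chr5:90772185-90772434 (plus strand) for Pf4, chr10:117282273-117282522 (minus) for Lyz2, chr11:69666171-69666420 (minus) for Cd68, chr2:14229164-14229413 (plus) for Mrc1 and chr4:136886201-136886450 (minus) for C1qb. Before its start Mrc1 held 3 matches, Pf4, Cd68 and C1qb 1 each, and Lyz2 0. Over the whole windows, GAGGAA was found on either strand in 19 of 27 windows of the members (70.4%), which belong to 17 of the 23 genes, and in 28.3% of all 32851 windows. AGATAA, a motif bound by GATA factors of blood cells, was found on either strand in 3 of 27 (11.1%) and in 11.2% of all windows, with Pf4, Ptprc and Fcrls as the 3 genes. Copies of the 2 motifs can overlap by at most 1 base. A match is a description of the letters and not of binding.

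None of the 31 genes passed the test between SmoM2 and wild type. In limma over all 19938 genes, 0.983% were called at an adjusted p under 0.05 (0.657% lower and 0.326% higher in SmoM2), and the 31 genes gave 0 calls with adjusted p from 0.0739 for Lyz2 to 0.993 for C1qc. At an unadjusted p under 0.05 there were 12 lower and 0 higher members, against 10.5% of all genes in either direction, 7.24% lower and 3.29% higher. Differences, given as SmoM2 minus wild type on the log2 scale, were negative for 27 of 31 (87.1%, against 49.2% of all genes) and had a median of -0.14 (0.0018 over all genes). Every SmoM2 array lay below every wild type array in 13 members, and above in 1, against 10.1% and 5.64% of all genes. With the arrays centred on their 75th percentile 24 members were negative and 10 apart downward, beside 34.3% and 7.91% of all genes. These counts describe a list chosen with earlier results of these data known, and its members share cells, so they are not separate observations.

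Brighter probe sets leaned the same way across the array. Among the 11857 genes above the median of all probe sets, 58.6% had a negative difference and 14.4% had all SmoM2 arrays below all wild type arrays. Of the 18 members above that median 17 had a negative difference and 9 had groups apart in that direction. The differences were small. No 95% interval of a member, each taken on its own, reached a 2-fold decrease, and for 28 of 31 (96.9% of all genes) the interval lay within 1.5-fold either way. The other 3 were Pf4, Cd68 and Mrc1, whose intervals reached a 1.74-fold, 1.54-fold and 1.52-fold decrease.

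**Figure D1:**
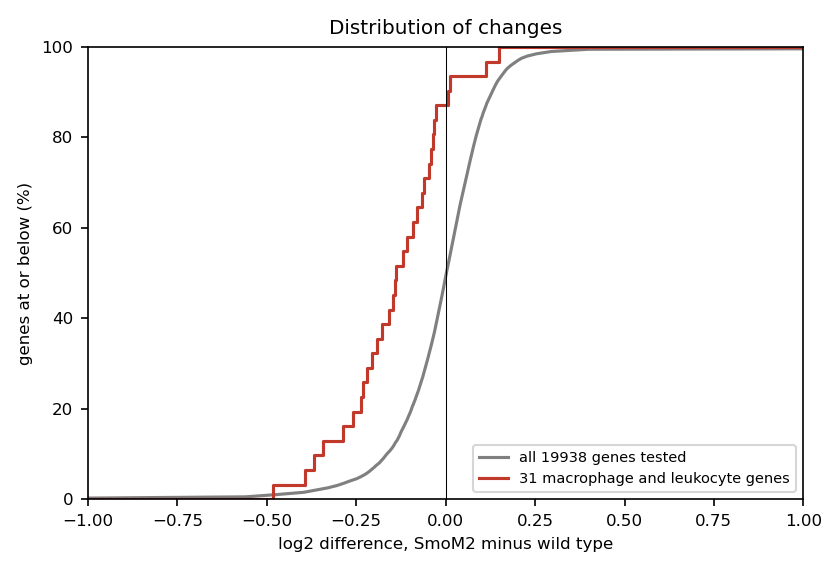
Cumulative share of genes (vertical axis, percent) at or below each log2 difference, SmoM2 minus wild type (horizontal axis), for the 31 macrophage and leukocyte genes (red steps) and all 19938 genes tested (grey line). The red steps run to the left of the grey line, with 27 of 31 genes below 0, from -0.48 for Pf4 to 0.15 for Cd14.

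The lysosomal and secreted products had the largest differences, with a median of -0.34 over 4 genes. Lyz2, the lysozyme of myeloid cells, had signals of 8.29, 8.25 and 8.39 in wild type 1, 2 and 3 and of 7.76, 8.01 and 7.97 in SmoM2 1, 2 and 3. The groups did not overlap, and the SmoM2 values lay below the 95th percentile of receptor genes while the wild type values lay above it. The difference was -0.39 (SE 0.08, 95% interval -0.58 to -0.20), a 1.31-fold lower signal, and had the lowest adjusted p of the members (limma, 0.0739). A close copy, Lyz1, may share some of this signal.

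Pf4, platelet factor 4, which embryonic macrophages also make, read 9.65, 9.61 and 9.55 in wild type and 8.74, 9.36 and 9.25 in SmoM2. Its groups were apart and SmoM2 1 lay well below the other SmoM2 arrays. The difference of -0.48 (SE 0.14, interval -0.80 to -0.16, adjusted p = 0.205 in limma) was the largest of the 31, and without SmoM2 1 it was -0.29 (adjusted p = 0.194). F13a1, the clotting factor XIII A chain of megakaryocytes and macrophages, read 8.79, 9.07 and 9.08 in wild type and 8.53, 8.72 and 8.83 in SmoM2. Here SmoM2 3 lay above wild type 1, and the difference was -0.29 (SE 0.11, adjusted p = 0.350). Ctss, the protease cathepsin S that trims antigens, had groups just apart at 8.43 to 8.56 and 8.31 to 8.37 and a difference of -0.15 (adjusted p = 0.490).

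Because Pf4 is also a gene of megakaryocytes, other genes of that lineage were read beside it. All 10 measured genes of the megakaryocyte and platelet list had a negative difference (median -0.13), against 49.2% of all genes and 58.6% of those above the median. Groups were apart in 4 of the 10 (10.1% of all genes, 14.4% of those above the median). Of the 10, 0 passed the threshold and 9 lay above 8.05. The mean of the list ran from 8.97 to 9.08 over the wild type arrays and from 8.83 to 8.86 over the SmoM2 arrays. Ppbp, a platelet chemokine, read 10.56, 10.27 and 10.09 in wild type and 9.29, 9.94 and 9.70 in SmoM2, a difference of -0.66 (SE 0.17, adjusted p = 0.127). SmoM2 1 was its lowest array, as for Pf4. Gp9, a subunit of the platelet receptor for von Willebrand factor, differed by -0.33 (adjusted p = 0.102). Both passed the threshold without SmoM2 2 (limma adjusted p = 0.0485 for Ppbp and 0.0481 for Gp9). Without any other single array neither passed (0.0647 to 0.460 for Ppbp and 0.108 to 0.414 for Gp9). Whether these cells have a part in the difference of Pf4 or F13a1 was not tested.

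Scavenger and pattern receptors had differences of both signs. Cd68, a glycoprotein of lysosomes used as a macrophage marker, read 9.44, 9.40 and 9.08 in wild type and 8.79, 9.12 and 8.90 in SmoM2. The groups overlapped, since wild type 3 lay below SmoM2 2, and the difference was -0.37 (SE 0.11, adjusted p = 0.247). Mrc1, the mannose receptor of resident macrophages, read 9.35, 9.10 and 8.89 in wild type and 8.64, 8.82 and 8.85 in SmoM2. Its groups were apart by little, with wild type 1 the highest, and the difference was -0.34 (SE 0.11, adjusted p = 0.289). Both had their highest value in wild type 1, the array with the lowest Xist and the highest Y-linked signal. In a fit that took the Y-linked level as a covariate, Mrc1 differed by -0.06 and Cd68 by -0.16. Of the 31 members 27 were negative in that fit, with a median of -0.099 (56.5% and -0.018 over all genes). The Y-linked level was higher in wild type 1 and 2 than in any SmoM2 array. Sex-linked signal and genotype therefore cannot be fully told apart.

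Ly86, also called MD-1, which pairs with a Toll-like receptor relative, read 9.26, 9.20 and 9.28 in wild type and 8.71, 9.12 and 9.13 in SmoM2. The groups were apart, and SmoM2 1 alone lay far from wild type (difference -0.26, SE 0.11, adjusted p = 0.447), and without SmoM2 1 the difference was -0.12. F13a1 and Ly86 are next to each other among the coding genes of chromosome 13. Cd14, a coreceptor for bacterial lipopolysaccharide, was the 1 member with every SmoM2 array above wild type, at 7.80 to 7.89 and 7.92 to 8.10 (difference 0.15, adjusted p = 0.545). Cd163, a receptor that clears haemoglobin, overlapped between the groups (0.11, adjusted p = 0.765). Both lie in the range of dim probe sets.

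**Figure D2:**
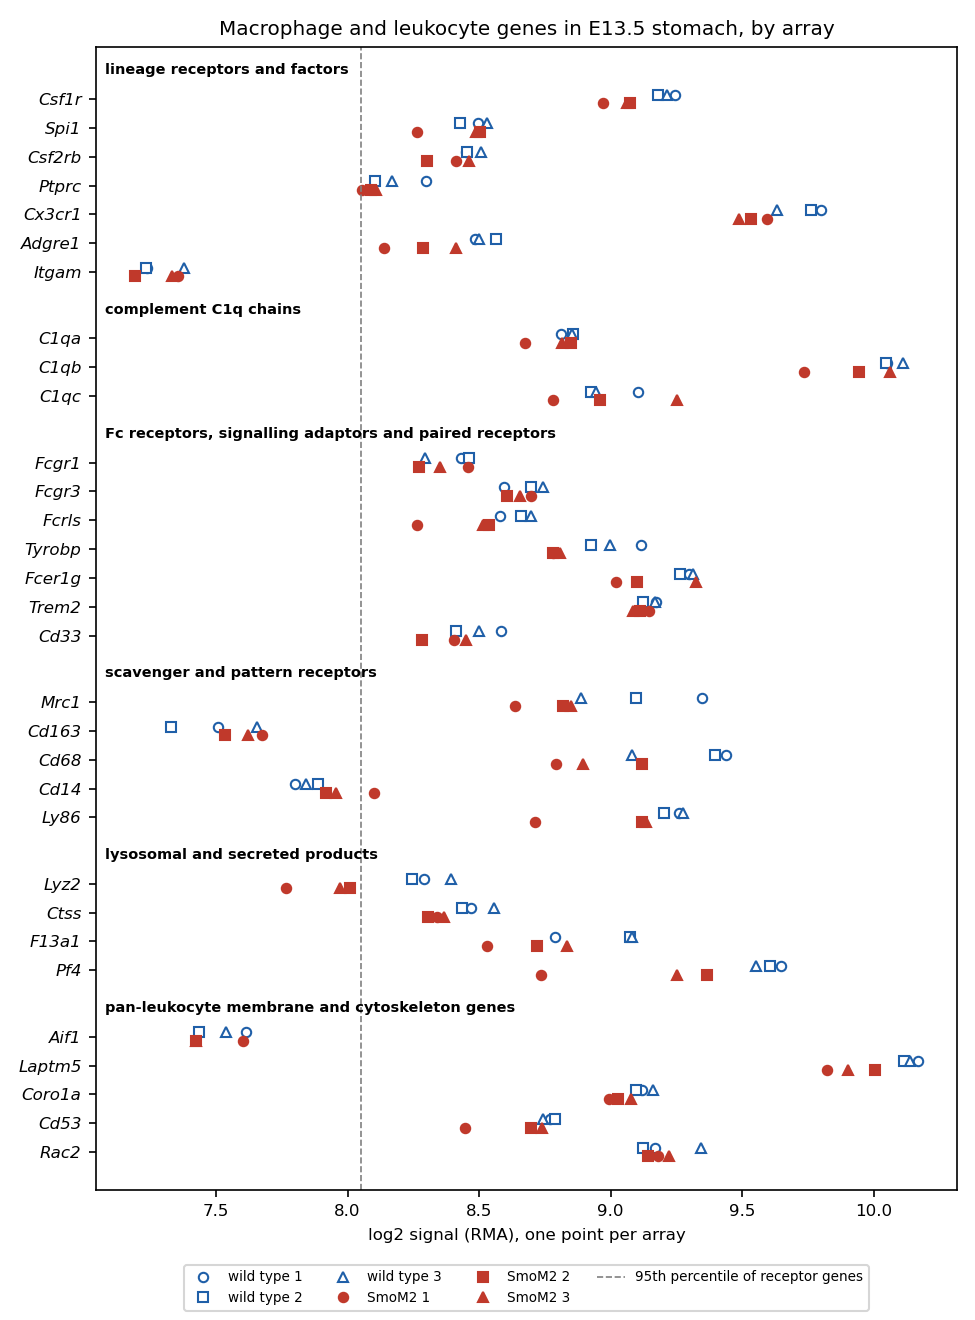
Log2 signal (horizontal axis) of each of the 31 genes on each array, with wild type arrays as open blue symbols and SmoM2 arrays as filled red symbols, ordered by role. The dashed line marks 8.05, the 95th percentile of receptor genes, with Itgam, Cd163, Cd14 and Aif1 around or below it. SmoM2 1 (red circles) is the lowest of the 6 arrays in 19 of the 31 genes.

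Among lineage receptors and factors, 6 of 7 had a negative difference (49.2% of all genes), with a median of -0.11. Groups were apart downward in 3 of the 7 (10.1% of all genes). Csf1r, the receptor for the growth factors Csf1 and Il34, read 9.24, 9.18 and 9.21 in wild type and 8.97, 9.07 and 9.06 in SmoM2. The arrays of each group lay close together and the groups were apart, with a difference of -0.18 (SE 0.07, interval -0.33 to -0.03, adjusted p = 0.357). Adgre1, which encodes the surface protein F4/80, read 8.48, 8.57 and 8.50 in wild type and 8.14, 8.29 and 8.41 in SmoM2. These did not overlap either, with SmoM2 1 the lowest (difference -0.24, SE 0.08, adjusted p = 0.313). Cx3cr1, the receptor for fractalkine, lay at 9.63 to 9.80 in wild type and 9.49 to 9.59 in SmoM2 (-0.19, SE 0.07, adjusted p = 0.366).

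Ptprc, the phosphatase CD45 carried by all leukocytes, read 8.30, 8.10 and 8.17 in wild type and 8.06, 8.09 and 8.11 in SmoM2. The groups overlapped slightly, and all values lay close to the receptor genes' 8.05. The difference was -0.11 (SE 0.07, interval -0.27 to 0.06, adjusted p = 0.702). Spi1 differed by -0.07 (adjusted p = 0.857), with SmoM2 1 at 8.26 and the other 5 arrays between 8.43 and 8.53. Csf2rb, the signalling chain shared by the receptors for GM-CSF, IL-3 and IL-5, differed by -0.08, and Itgam, the integrin chain CD11b, by 0.01, both with overlapping groups.

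The 3 chains of complement C1q had differences from -0.16 to 0.01. They are secreted by macrophages as one complex and their genes are neighbours on chromosome 4, in the order C1qb, C1qc, C1qa. C1qa read 8.81, 8.86 and 8.85 in wild type and 8.67, 8.85 and 8.81 in SmoM2 (difference -0.06, SE 0.07, adjusted p = 0.847). C1qb read 10.05, 10.05 and 10.11 against 9.73, 9.94 and 10.06 (-0.16, SE 0.09, adjusted p = 0.621). C1qc read 9.10, 8.92 and 8.94 against 8.78, 8.96 and 9.25 (0.01, SE 0.12, adjusted p = 0.993). All 3 were lowest in SmoM2 1, and all had overlapping groups. SmoM2 3 was the highest array for C1qc and lay within the wild type range for C1qa and C1qb. Their intervals excluded a decrease beyond 1.17-fold for C1qa, 1.28-fold for C1qb and 1.19-fold for C1qc.

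The 7 Fc receptors, adaptors and paired receptors all had negative differences (49.2% of all genes did), from -0.22 to -0.03. Tyrobp, the adaptor DAP12 that carries the signal of Trem2 and related receptors, read 9.12, 8.92 and 8.996 in wild type and 8.78, 8.78 and 8.81 in SmoM2. Its SmoM2 arrays agreed closely and lay below all wild type arrays (difference -0.22, SE 0.07, interval -0.38 to -0.06, adjusted p = 0.275). Fcer1g, the common gamma chain of Fc receptors, read 9.30, 9.26 and 9.31 against 9.02, 9.10 and 9.33. SmoM2 3 was the highest of its 6 arrays, and the difference was -0.14 (SE 0.09, adjusted p = 0.656). Fcrls, a scavenger receptor of the Fc receptor-like family, had groups apart at 8.58 to 8.70 and 8.26 to 8.54 (-0.21, adjusted p = 0.439; -0.12 without SmoM2 1). Trem2, a lipid-sensing receptor, stayed within 9.08 to 9.17 over all 6 arrays (-0.04, SE 0.06). Cd33, a sialic acid receptor, and the IgG receptor genes Fcgr1 and Fcgr3 differed by -0.12, -0.03 and -0.03 with overlapping groups. Fcgr3 has close relatives whose transcripts its probe set may also detect.

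Pan-leukocyte membrane and cytoskeleton genes had 5 of 5 negative differences (49.2% of all genes), with a median of -0.09. Laptm5, a lysosomal membrane protein of blood cells, read 10.17, 10.11 and 10.14 in wild type and 9.82, 10.00 and 9.90 in SmoM2. The groups were apart (difference -0.23, SE 0.07, interval -0.39 to -0.07, adjusted p = 0.247). Coro1a, an actin regulator, and Cd53, a tetraspanin, also had groups apart, by narrow margins (9.10 to 9.16 against 8.99 to 9.08, and 8.74 to 8.79 against 8.44 to 8.74), and differences of -0.09 and -0.14. Without SmoM2 1 the Cd53 difference was -0.048. Rac2, a GTPase of blood cells, and Aif1, the calcium-binding protein Iba1, differed by -0.03 and -0.05 with overlapping groups.

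**Figure D3:**
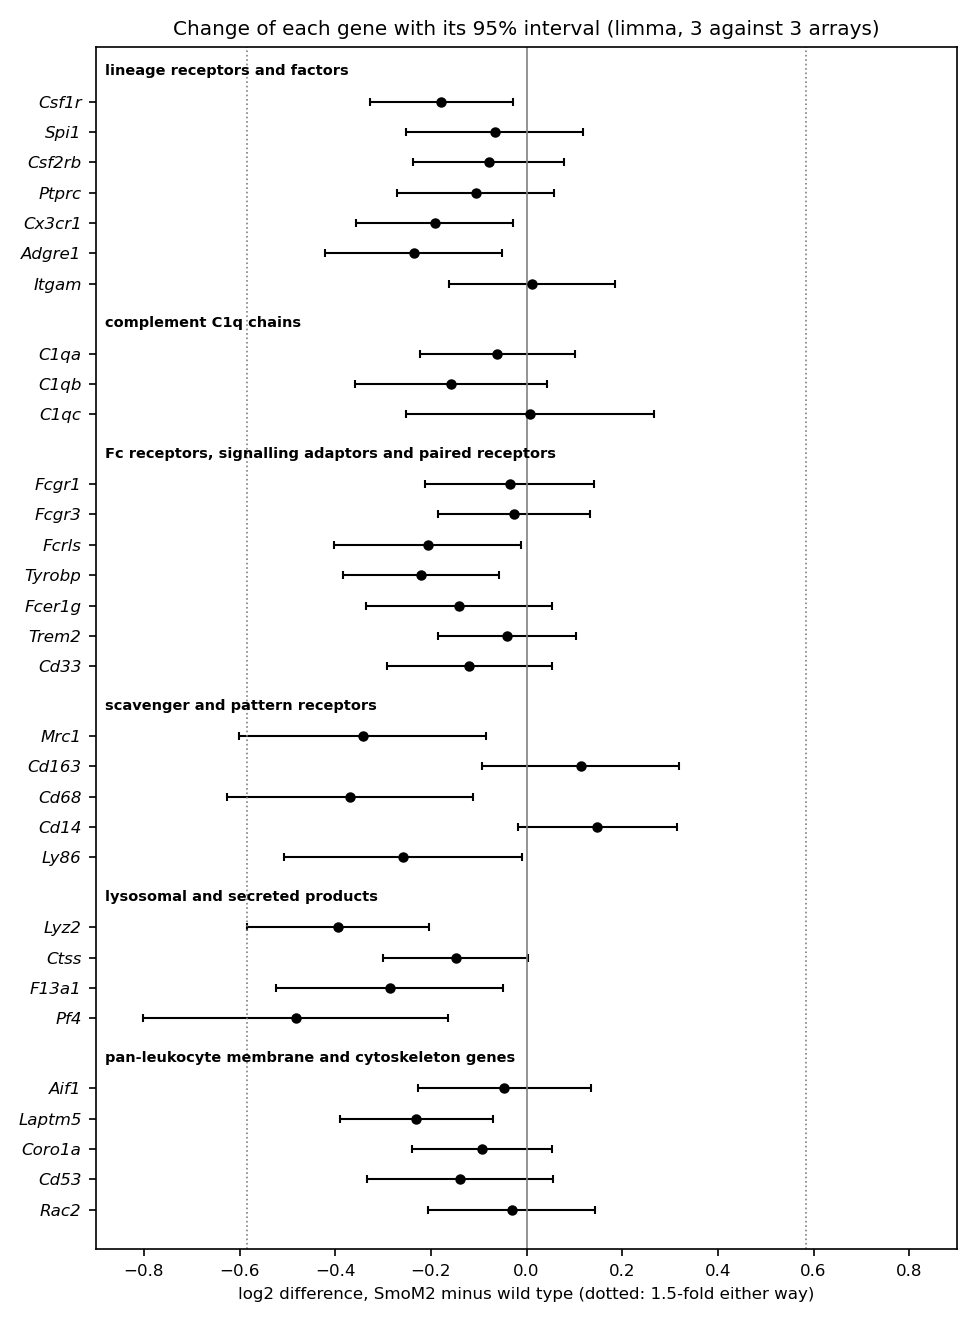
Log2 difference of each gene, SmoM2 minus wild type (horizontal axis), with its 95% interval from limma (3 against 3 arrays), ordered by role; the solid line marks 0 and the dotted lines a 1.5-fold difference either way. The intervals of 12 genes exclude 0, all on the lower side, and those of Pf4, Cd68 and Mrc1 cross the dotted line of a 1.5-fold decrease.

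Averaged over the 31 genes, the wild type arrays stood 0.09, 0.05 and 0.08 above the mean of all 6 arrays, and SmoM2 1, 2 and 3 stood at -0.14, -0.06 and -0.02. SmoM2 1 held the lowest value in 19 members and SmoM2 3 in 2. How often SmoM2 1 was lowest over all genes was not counted. On the same scale the erythroid, endothelial and stomach tissue lists were also lowest in SmoM2 1 (-0.150, -0.119 and -0.145). The other lists outside the 31 were lowest in another array. Without SmoM2 1 the median difference of the 31 was -0.09 and 27 were negative, 26 of them among the 27 of all arrays. Among members with a difference over 0.1 in size, it moved by over 1.5 times without SmoM2 1 for Pf4, Ly86, Fcrls and Cd53, as given with each, and also for C1qb (-0.067), Fcer1g (-0.077) and Cd14 (0.094). Without wild type 1 it was -0.22 for Mrc1, -0.053 for Ptprc and -0.078 for Cd33, without SmoM2 2 it was -0.072 for Cd33, without SmoM2 3 it was -0.23 for Fcer1g, and without wild type 2 and wild type 3 it was 0.029 and 0.19 for Cd163. Dim genes differed between the arrays along another line: the median of the receptor genes was 6.40 in SmoM2 1 and 6.32 in wild type 3, and 6.16 and 6.18 in SmoM2 2 and wild type 2. Lists with mostly dim members (granulocytes and monocytes, lymphocytes, dendritic cells, mast cells) were likewise highest in SmoM2 1 and wild type 3.

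Related genes outside the 31 gave 2 calls. Of 30 measured genes of leukocyte signalling, Plek and Irf5 were lower in SmoM2, 0 were higher and 28 did not pass. Differences were negative for 24 of the 30, with a median of -0.06. Over all genes 0.657% were called lower and 49.2% were negative, and 58.6% of those above the median of all probe sets were negative. Plek, a protein kinase C substrate of platelets and leukocytes, fell from 9.59, 9.62 and 9.46 to 8.95, 9.23 and 8.91 (1.44-fold lower, log2 difference -0.53, SE 0.10, limma adjusted p = 0.0386). Irf5, a transcription factor of macrophages and other leukocytes, fell from 8.82, 8.77 and 8.74 to 8.28, 8.44 and 8.31 (1.35-fold lower, -0.44, SE 0.07, adjusted p = 0.0250). Neither gene overlapped between the groups. Each call held in 11 alternatives, of 19 for Plek and 18 for Irf5. Among these were the fits without wild type 3 (limma adjusted p = 0.0369 and 0.0418) and without SmoM2 2 (0.0128 and 0.0248). Without wild type 1, wild type 2, SmoM2 1 or SmoM2 3 neither call held. The adjusted p was then 0.188, 0.147, 0.135 and 0.210 for Plek and 0.154, 0.0921, 0.0791 and 0.155 for Irf5. Taking the Y-linked level as a covariate it was 0.496 and 0.436, with wild type 3 alone against SmoM2 0.867 and 0.731, with each probe set as its own row 0.269 and 0.192, and for Plek with centring on the 75th percentile 0.0598.

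Other genes of resident macrophages had 0 calls among 27 measured and a median of -0.04. Of the 27, 15 had a negative difference (55.6%, against 49.2% of all genes). C3ar1, the receptor for complement fragment C3a, read 9.30, 8.82 and 8.84 in wild type and 8.56, 8.55 and 8.57 in SmoM2 (-0.43, SE 0.12, adjusted p = 0.178), and without wild type 1 the gap was -0.27. Stab1, a scavenger receptor that vessels share, differed by -0.34 (adjusted p = 0.128). Growth factors, chemokines and their receptors had 0 calls among 24 and a median of -0.02. Of the 24, 15 had a negative difference (62.5%, against 49.2% of all genes) and 9 a positive one, up to 0.17. Ccl3, a chemokine made by macrophages, read 8.54, 8.37 and 8.19 in wild type and 8.06, 7.82 and 7.94 in SmoM2 (-0.43, SE 0.10, limma adjusted p = 0.106). Its adjusted p was 0.0426 without wild type 3, and 0.135 to 0.413 without any other single array. Cd47, the signal that restrains engulfment and that most cells carry, differed by -0.22 (adjusted p = 0.287).

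Differences of red cell and vessel genes were mostly negative as well, with 0 calls. Over all genes 49.2% were negative, and 58.6% of those above the median of all probe sets. Erythroid genes had 16 of 17 negative differences (median -0.18, 5 with groups apart, against 10.1% of all genes and 14.4% of those above the median), with list means of 10.22 to 10.36 in wild type and 10.03 to 10.16 in SmoM2. The embryonic globin gene Hbb-bh1 and the blood group gene Kel both differed by -0.38 (limma adjusted p = 0.215 and 0.125). For Kel the adjusted p was 0.0420 without wild type 3, and 0.156 to 0.479 without any other single array. Endothelial genes had 21 of 24 negative differences (median -0.11), all 24 lay above the median of all probe sets, and 10 had groups apart against the 14.4% of such genes, with list means of 10.10 to 10.15 and 9.94 to 10.04. Ptprb, a phosphatase of vessels, and Kdr, a receptor for vascular endothelial growth factor, differed by -0.42 and -0.36 (adjusted p = 0.0663 and 0.101). Ptprb passed with the filter on dim probe sets (0.0355), and both passed with an intensity trend (0.0473 and 0.0488). Both also passed with the replicate number as a block (limma adjusted p = 0.00769 and 0.0147). The same held with array weights (0.00229 and 0.000924) and with the receptor gene median as a covariate (0.00865 and 0.0203). The part of blood and vessel content in the differences of the 31 genes was not tested.

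In each list of other leukocytes more genes had a positive than a negative difference. Over all genes 49.2% of differences were negative, and 58.6% of those above the median of all probe sets. Genes below that median therefore had a share under 49.2%. Above it lay 2 of the 17 lymphocyte genes and 2 of the 12 dendritic cell and MHC class II genes. Among mast cell genes 1 of 8 did, and among granulocyte and monocyte genes 0 of 18. Whether the signs of these lists follow from their dim signal was not tested. Lymphocyte genes had 5 of 17 negative differences (median 0.02), dendritic cell and MHC class II genes 2 of 12 (0.06), mast cell genes 2 of 8 (0.05), and granulocyte and monocyte genes 8 of 18 (0.03), all with 0 calls. Among the latter Plac8 differed by -0.36 and Chil3 by 0.31, and Thy1, Ncr1, Itgax, H2-Ab1, Mcpt4 and Fcer1a by 0.14 to 0.19. Some of these moved by over 1.5 times when 1 array was left out: without SmoM2 1 Mcpt4 stood at 0.038, Thy1 at 0.070, Ncr1 at 0.12 and Plac8 at -0.24. Without wild type 1 Plac8 stood at -0.24, Chil3 at 0.20 and H2-Ab1 at 0.097, without SmoM2 2 Chil3 at 0.20, without wild type 2 Ncr1 at 0.11, and without wild type 3 Ncr1 at 0.31. The mean of the lymphocyte list ran from 7.38 to 7.62 in wild type and from 7.48 to 7.66 in SmoM2. Since most of these probe sets read in the range of receptor genes, they limit what could be seen of such cells.

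**Figure D4:**
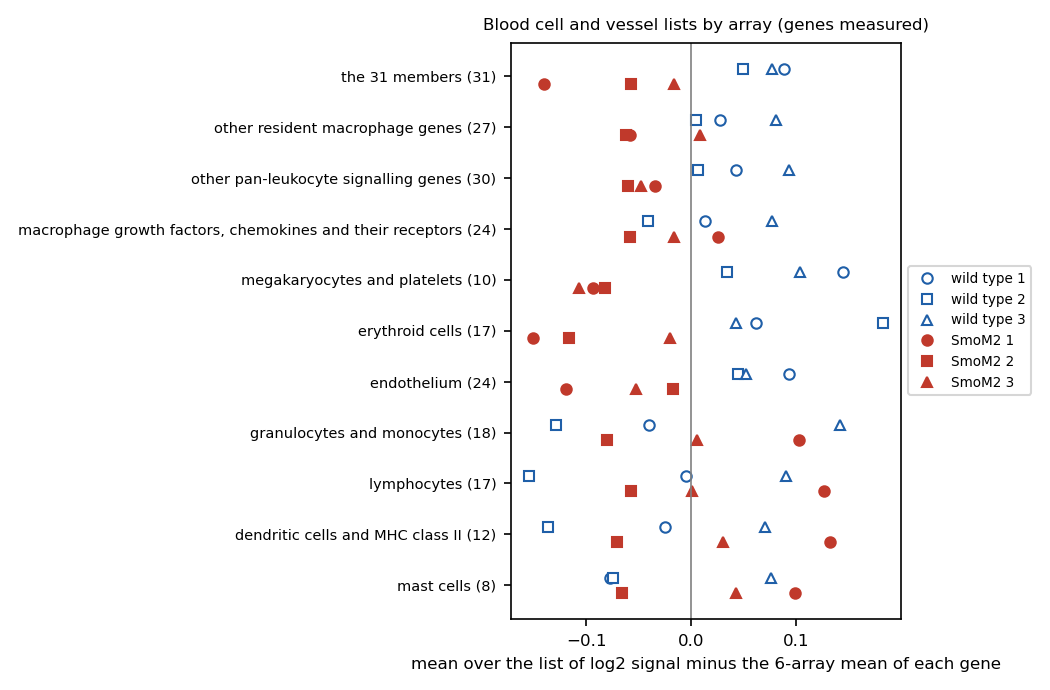
Mean over each gene list of the log2 signal minus the mean of each gene over the 6 arrays (horizontal axis), for wild type arrays (open blue) and SmoM2 arrays (filled red), with the number of genes measured in brackets. For the 31 members, other pan-leukocyte genes, megakaryocytes, erythroid cells and endothelium every SmoM2 array lies below every wild type array, and the stomach mesenchyme and epithelium list, which is not drawn, has the same order. The 4 lists at the bottom are highest in SmoM2 1 or wild type 3.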

How the data were processed

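The authors deposited log2 signals for 35556 probe sets on 6 arrays (3 wild type, 3 SmoM2, grouped by title). The submitters' processing notes list RMA and affy without a version. RMA makes the arrays' distributions alike and compresses small signals. Array medians ran from 8.56 to 8.62, and precision is limited by how many arrays there are. Names came from the platform annotation: 21789 probe sets had 1 gene symbol, 1621 several and 12146 none, and only the first were used, with the highest probe set for each of 19938 genes. Groups were compared with limma 3.58.1 in R 4.3.3 (lmFit, eBayes), with Benjamini-Hochberg adjustment over all genes and a threshold of 0.05. The scripts were tested on simulated data. Intervals are limma's 95% intervals. An exact permutation test of 3 against 3 cannot go below p = 0.1 and was not run. The members and lists were chosen with earlier results of these data known, and no list was tested. All members are named, with values of every array for 8 genes picked by role and for the 8 largest differences. Of other lists, up to 4 called genes or else the 2 largest differences are named. Alternatives were a block on replicate number, fits without 1 array, a filter on dim probe sets, other probe set choices, centring, other variance models, array weights and covariates.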

Additional observations from a re-analysis of the deposited data

How the results depend on the processing

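In the fits that left out 1 array, 0 members were called, 26 to 29 had a negative difference, the median ran from -0.16 to -0.093, and 14 to 19 had groups apart downward, where 11.9% to 19.7% of all genes did. The labels do not say whether the replicate numbers pair the samples. Deviations from the group means correlated across genes at -0.10, 0.52 and 0.06 for numbers 1, 2 and 3. Between unlike numbers the correlations ran from -0.60 to 0.52, so these values cannot decide it. With the replicate block 3 members passed (Pf4, Lyz2 and Cd68), and 698 genes in all against 196. With the receptor gene median as a covariate, chosen after seeing the data, the same 3 members passed, and 729 genes in all. Array weights gave 8 members, a median of -0.0742 and 4110 genes in all. These weights ran from 0.3275 for SmoM2 1 to 6.024 for SmoM2 3, and their estimation stopped before it converged. Some named genes outside the members, not called in the main fit, passed as well. Stab1, Ccl3, Ppbp, Gp9, Kel, Ptprb and Kdr did so with the block, the receptor covariate and the weights. C3ar1 and Hbb-bh1 passed with the block and the weights, and Cd47, Plac8, Ncr1, Itgax and H2-Ab1 with the weights alone. Among probe sets above the median 17 of the 18 members left were negative. In the other alternatives 0 members passed.

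Calls over all genes were 51, 62 and 228 without wild type 1, 2 and 3, and 80, 247 and 32 without SmoM2 1, 2 and 3. They were 5 with every probe set as its own row, 336 with an intensity trend, 120 with centring on the 75th percentile, 22 with the Y-linked covariate and 8 with wild type 3 alone against SmoM2, a setting chosen after seeing the data. The sign turned in the following cases. Leaving out arrays gave -0.0193 to 0.0622 for Itgam, -0.12 to 0.12 for C1qc, -0.0850 to 0.0095 for Fcgr1, -0.0684 to 0.0057 for Fcgr3, -0.0759 to 0.0354 for Rac2 and -0.11 to 0.0105 for Spi1. Centring on the 75th percentile gave 0.0044 for Fcgr1, 0.0128 for Fcgr3 and 0.0081 for Rac2. Array weights gave 0.0162 for Fcgr3, 0.0019 for Fcer1g and 0.0260 for Rac2, and the Y-linked covariate gave -0.0681 for Itgam and 0.0248 for Fcgr1. Wild type 3 alone gave -0.0828 for Itgam, 0.0652 for Fcgr1, -0.0451 for Cd163 and -0.0284 for Ncr1. The causes were not tested. Dim signal limits Itgam, Cd163, Cd14 and Aif1.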
